A study of Rattus norvegicus with 12 samples.

Results

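Calmodulin and the kinases it switches on were followed in adult rat ventricular myocytes (ARVMs) that overexpressed the orphan nuclear receptor NR4A2. The set was every transcript whose gene name in the expression tables was Calm2, Calm3, Camk2a, Camk2b, Camk2d, Camk2g, Camk1, Camkk1 or Camkk2. It held 9 of the 17301 gene names, on 12 of the 18752 transcripts listed. ARVMs came from hearts of Sprague Dawley rats, and each of 6 independent experiments used cells of different animals. The control cells received Ad-GFP, an adenovirus that carries eGFP, and the other cells received Ad-h-NR4A2, an adenovirus with the full-length human NR4A2 cDNA behind the CMV promoter. Both viruses were given at a multiplicity of infection (MOI) of 50, and both groups were cultured with the contraction inhibitor 2,3-butanedione monoxime until RNA was extracted at 48 h. There were 6 samples per group, numbered 24 to 29 in each.

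Calmodulin is a small calcium sensor. Loaded with calcium, it binds and activates calcium/calmodulin-dependent protein kinase II (CaMKII), a holoenzyme built from α, β, δ and γ subunits that the genes Camk2a, Camk2b, Camk2d and Camk2g encode. In the heart, CaMKII phosphorylates proteins that move calcium in and out of the cytosol during each beat, and the δ subunit is its main cardiac form. A second branch runs through the CaM kinase kinases (Camkk1 and Camkk2), which phosphorylate CaM kinase I (Camk1), CaM kinase IV and the energy sensor AMPK. The genes Calm2 and Calm3 encode the same calmodulin protein.

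Expression was given as FPKM, the fragments on a transcript divided by its length and by the mapped fragments of the library, so that levels of different genes can be set side by side. Depth, worked out from the spacing of low FPKM values, was 18800000 to 28000000 fragments per sample in Ad-GFP and 21600000 to 27300000 in Ad-h-NR4A2. Changes are log2 ratios of FPKM plus 0.1, Ad-h-NR4A2 against Ad-GFP, from limma with Benjamini-Hochberg adjustment over 10950 genes. A gene is said to have risen or fallen where its adjusted p was below 0.05, and it is called where the ratio of the group means was also at least 1.5-fold. The Nr4a2 transcript itself had a mean of 0.884 FPKM in Ad-GFP and 524 FPKM in Ad-h-NR4A2, with no overlap, in accord with the labels. The rat table cannot tell human from rat NR4A2 fragments. Cardiomyocyte markers (Myh6, Myh7, Tnnt2, Tnni3, Actc1, Myl2) summed to 28736 to 35704 FPKM in Ad-GFP and 25274 to 30625 FPKM in Ad-h-NR4A2 (lower in 6 of 6 pairs), and 4 of the 6 genes had an adjusted p below 0.05. Of the 6, only Myh7 was called, and it was called down. Fibroblast, endothelial, smooth muscle and neural marker sums stayed at or below 25.1 FPKM in every sample, with Col1a2 and Snap25 listed at 0 in all 12. Among the smooth muscle markers, Myh11 was called down. Of 4 macrophage markers, Csf1r had a mean of 10.1 FPKM in Ad-GFP and 40.2 FPKM in Ad-h-NR4A2, whereas Cd68 had 0.463 and 0.482 FPKM (limma adjusted p = 0.905) and Ptprc at most 0.0489 FPKM in any sample. The sum of the 4 ran from 6.03 to 17.3 FPKM in Ad-GFP and from 37.2 to 44.6 FPKM in Ad-h-NR4A2. The part of the cardiomyocyte and macrophage markers in the results that follow was not tested. In RNA from a culture, fewer cells of a type and less RNA per cell cannot be told apart, which holds for every value below.

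All 9 genes could be tested, and 1 of them, Calm2, was called, against 15.2% of all genes (7.94% up and 7.24% down). By adjusted p alone, 1 rose (Calm2) and 3 fell (Camk2a, Camk2d and Camk1), so 4 of 9 changed, where 40.9% of all genes did (19.3% up and 21.7% down). The values of the groups did not overlap for 3 of the 9 (1 higher and 2 lower), against 21.5% of all genes (10.9% higher and 10.6% lower). The median change over the 9 genes was -0.06 on the log2 scale, and over all genes it was -0.02. These shares are close to those of all genes and give no result about the set, so the genes are described singly.

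**Figure D1:**
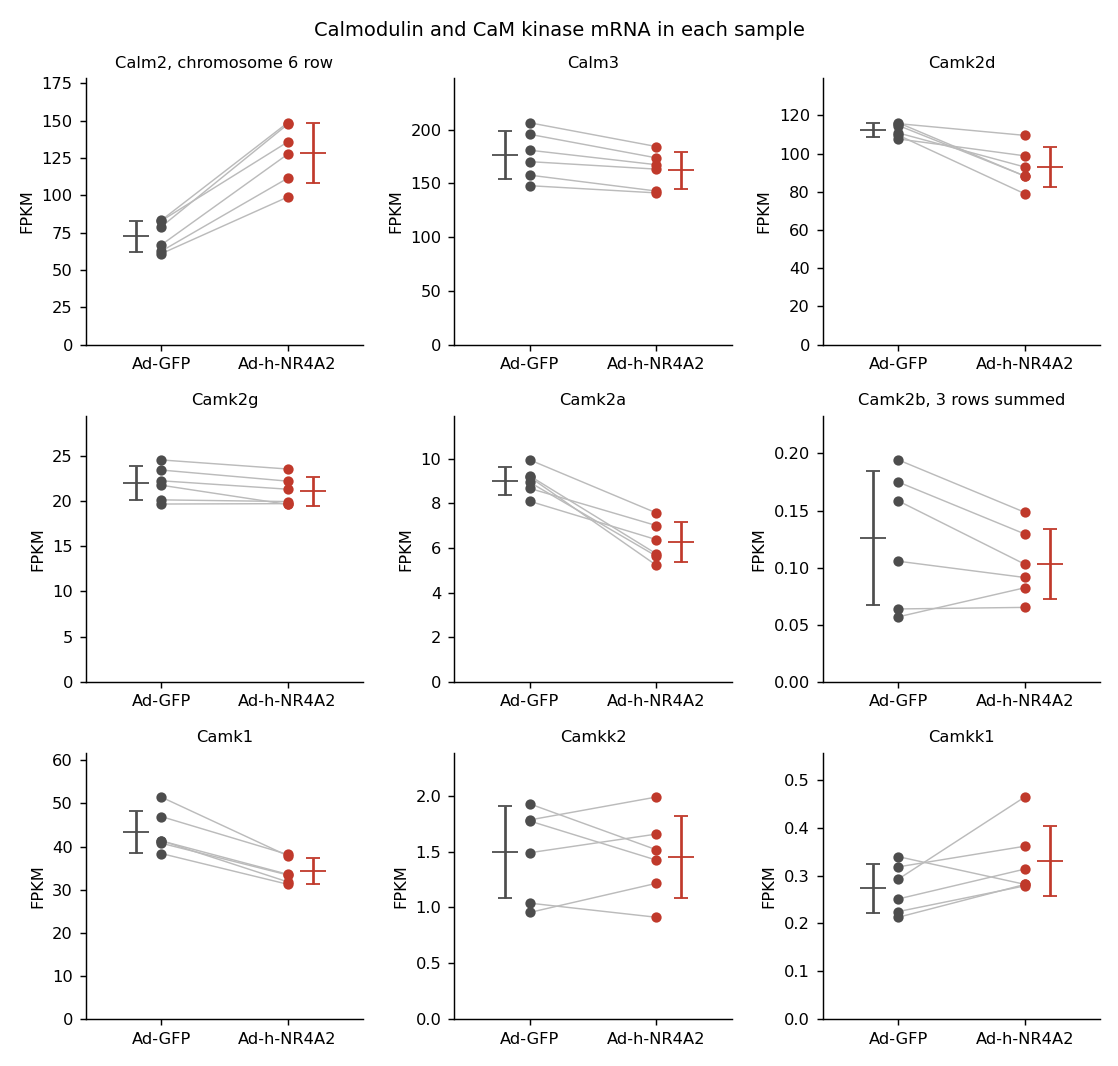
FPKM (vertical axis, from 0) of each gene in the 6 Ad-GFP samples (grey) and the 6 Ad-h-NR4A2 samples (red). Grey lines join samples with the same number, and bars beside the points are the mean ± SD. Calm2, Camk2a and Camk1 do not overlap between the groups, and Camk2d overlaps only through the Ad-h-NR4A2 sample at 109.5 FPKM.

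Levels are ordered here with the chromosome 6 entry of Calm2, since Calm2 is listed at 2 places, described below. In control ARVMs, the calmodulin gene Calm3 and the CaMKIIδ gene Camk2d then led the set. Calm3 averaged 176.4 FPKM ± 22.3 (SD, n = 6), Camk2d 112.4 ± 3.54, Calm2 72.6 ± 10.3, Camk1 43.4 ± 4.87, Camk2g 21.9 ± 1.87, Camk2a 9.02 ± 0.619, Camkk2 1.495 ± 0.412, Camkk1 0.274 ± 0.0516 and the 3 Camk2b transcripts together 0.126 ± 0.0586. No 2 neighbours in this order had overlapping ranges. With NR4A2 the order was the same except that Calm2 passed Camk2d. There the range of Calm2 overlapped those of both its neighbours, although Calm3 stayed above Calm2 in 6 of 6 samples and Calm2 lay above Camk2d in 5 of 6. With both entries of Calm2 added, its mean was 119.1 FPKM in Ad-GFP, where its range (97.9 to 138.4) overlapped that of Camk2d, and 210.1 FPKM in Ad-h-NR4A2, above the mean of Calm3. The places of Calm2, Calm3 and Camk2d thus depend on how Calm2 is counted.

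Calm2 rose. The table lists its RefSeq transcript at 2 places in the Rn5 genome, and the longer-spanning one, with introns, was used as the gene's value. It lies on chromosome 6 (21055870 to 21068077), where a transcript of 867 nt spans 12208 bases. In Ad-GFP its FPKM was 60.9 at the lowest, 72.9 at the median and 83.3 at the highest. In Ad-h-NR4A2 the corresponding values were 98.8, 131.6 and 148.6 FPKM. Every Ad-h-NR4A2 sample was above every Ad-GFP sample, and the lowest in both groups was number 28. The mean ratio was 1.77 and the log2 change was 0.82 ± 0.11 (SE), with a limma adjusted p of 7.00e-05 and a rise in 6 of 6 pairs. The two-sided exact permutation test gave p = 0.00216, the smallest it can give with 6 samples against 6.

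The second Calm2 entry, on chromosome 15 (69146644 to 69147756), has a length of 1113 nt over a span of 1113 bases, so it contains no intron. A newer RefSeq table for rat (GRCr8) lists Calm2 once, on chromosome 6. The chromosome 15 entry ran from 37.0 to 55.5 FPKM in Ad-GFP and from 64.6 to 93.4 FPKM in Ad-h-NR4A2, again without overlap. Its log2 change of 0.81 (limma adjusted p = 1.76e-04 among 11667 transcripts) was nearly that of the chromosome 6 entry. The ratio of the chromosome 15 to the chromosome 6 entry was 0.641 ± 0.0258 in Ad-GFP and 0.640 ± 0.0212 in Ad-h-NR4A2 (SD, n = 6, exact permutation p = 0.948). How fragments were divided between 2 copies of 1 transcript is uncertain, so the level of either entry is uncertain too. Added together, they went from a median of 120.0 FPKM (97.9 to 138.4) to a median of 218.3 FPKM (163.4 to 241.9), a ratio of 1.76.

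**Figure D2:**
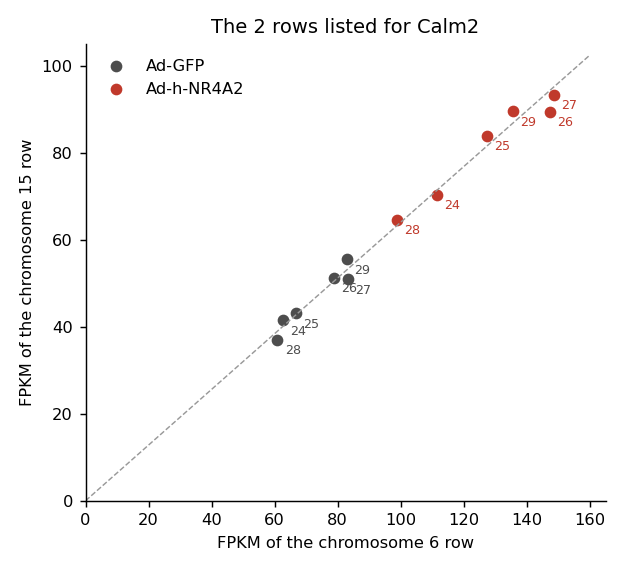
FPKM of the chromosome 15 entry of Calm2 (vertical axis) against the chromosome 6 entry (horizontal axis) in each of the 12 samples, labelled by sample number. The dashed line has the mean ratio of all samples as its slope. All samples lie near it, with ratios from 0.606 to 0.669, and the red Ad-h-NR4A2 samples lie further up the line than the grey Ad-GFP samples.

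Calm3, on chromosome 1 (80092078 to 80099186), had the highest mean of the set in Ad-GFP and did not move with Calm2. Its FPKM was 147.8, 175.5 and 206.3 in Ad-GFP and 141.1, 165.3 and 184.2 in Ad-h-NR4A2 (lowest, median and highest). The ranges overlapped widely, yet each Ad-h-NR4A2 sample was below the Ad-GFP sample of the same number, in 6 of 6 pairs. Without regard to pairs, the log2 change was -0.12 ± 0.09 (SE, limma adjusted p = 0.309), which is no call. With the replicate number as a block, the same change had an adjusted p of 0.00229 in limma. Calm3 thus fell by a small amount once the spread between experiments was taken out. With this block, 6509 of the 10950 genes had an adjusted p below 0.05, beside 4484 without it.

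Calm2 and Calm3 together had a mean of 295.5 FPKM ± 38.9 in Ad-GFP and 372.2 FPKM ± 47.1 in Ad-h-NR4A2 (SD, n = 6, both Calm2 entries included). The sum was higher in 6 of 6 pairs, although the ranges overlapped, and the log2 difference of 0.33 had a two-sided exact permutation p of 0.0195. Sign changes within the pairs gave an exact p of 0.03125 for it. With the chromosome 6 entry alone for Calm2, the log2 difference was 0.22, which did not pass without pairing (exact permutation p = 0.0628) and passed with sign changes within the pairs (exact p = 0.03125, the smallest that 6 pairs allow), a paired alternative added after the data were seen.

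The make-up of this sum shifted without overlap between the groups. Calm2 gave 40.3% ± 1.32 of it in Ad-GFP and 56.3% ± 1.97 in Ad-h-NR4A2, and Calm3 gave the rest (SD, n = 6, exact permutation p = 0.00216). With the chromosome 6 entry alone, Calm2 gave 29.1% ± 1.02 and 44.0% ± 2.23 (SD, n = 6, exact permutation p = 0.00216), so that it stayed below Calm3 in both groups. For either count of Calm2, sign changes within the pairs gave an exact p of 0.03125, the smallest that 6 pairs allow. These shares were computed after the levels of the single genes were seen.

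**Figure D3:**
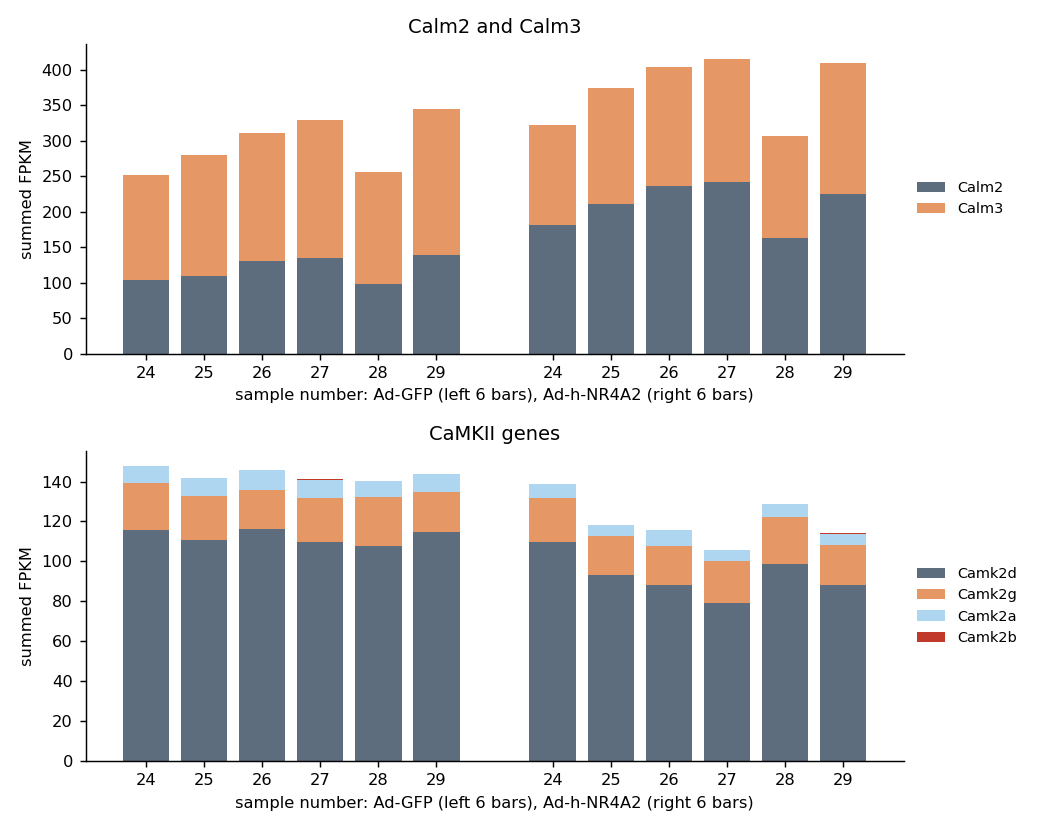
Summed FPKM (vertical axes, from 0) of Calm2 and Calm3 (top) and the CaMKII genes (bottom) in each sample, with Ad-GFP on the left, Ad-h-NR4A2 on the right and sample numbers below the bars. Colours mark the genes. The upper bars grew in their Calm2 layer, and the CaMKII bars were lower in every Ad-h-NR4A2 sample (105.6 to 138.8 FPKM) than in any Ad-GFP sample (140.4 to 147.8 FPKM), while the Camk2b layer is too thin to see.

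Among the CaMKII subunits, the δ and α genes fell, the γ gene did not pass the test and the β gene was barely detected. Camk2d, on chromosome 2 (250252085 to 250482719), supplied most of the CaMKII mRNA. Its FPKM was 107.6, 112.7 and 116.1 in Ad-GFP and 79.0, 90.6 and 109.5 in Ad-h-NR4A2 (lowest, median and highest). The Ad-GFP samples were tightly grouped, the Ad-h-NR4A2 samples were spread out, and only Ad-h-NR4A2 sample 24 reached into the Ad-GFP range. The log2 change was -0.28 ± 0.06 (SE, limma adjusted p = 0.00320), a ratio of 0.826 that was lower in 6 of 6 pairs but short of the fold limit. Between 3686 and 6867 fragments per sample lay behind these values. The table carries 1 Camk2d transcript, so its cardiac splice variants, which direct the kinase to the nucleus or the cytosol, are not resolved.

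Camk2a, best known as the abundant neuronal subunit, had the largest fall of the set. Its FPKM ran from 8.10 through a median of 9.07 to 9.95 in Ad-GFP and from 5.23 through 6.06 to 7.58 in Ad-h-NR4A2. No sample of either group entered the range of the other, and the highest Ad-h-NR4A2 value belonged to number 26, as did the highest Ad-GFP value. The log2 change was -0.53 ± 0.09 (SE, limma adjusted p = 4.45e-04), lower in 6 of 6 pairs. Its ratio of 0.695 stayed just short of the fold limit, and without Ad-h-NR4A2 sample 26 it passed (log2 change -0.58, adjusted p = 1.84e-04 in limma). From 138 to 302 fragments per sample were behind each value. The neuron and Schwann cell markers summed to at most 0.0827 FPKM in Ad-GFP and 0.112 FPKM in Ad-h-NR4A2, with Snap25 listed at 0 throughout. Whether other cells contributed Camk2a mRNA was not tested.

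Camk2g, on chromosome 15 (3669219 to 3724734), ran from 19.7 to 24.5 FPKM in Ad-GFP and from 19.6 to 23.5 FPKM in Ad-h-NR4A2, with medians of 21.98 and 20.6. The groups overlapped almost fully. Its log2 change of -0.06 ± 0.07 (SE) did not pass (limma adjusted p = 0.510), and 597 to 981 fragments per sample stood behind it.

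Camk2b has 3 transcripts in the table, all on chromosome 14 (86893081 to 86982256). Their sum was 0.0569 to 0.194 FPKM in Ad-GFP and 0.0652 to 0.148 FPKM in Ad-h-NR4A2. For scale, 3 fragments on the shortest of the 3 transcripts correspond to 0.0301 to 0.0449 FPKM in these samples, so each value rests on a handful of fragments. Single transcripts were often given estimates close to 0 that count as above 0 in the filter. The transcript with the highest mean had a log2 change of 0.09 ± 0.29 (SE, limma adjusted p = 0.825) and the sum one of -0.12. A difference in Camk2b was thus not detectable at this depth.

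Summed over all 4 genes, CaMKII mRNA fell from 143.5 FPKM ± 2.92 to 120.2 FPKM ± 11.8 (SD, n = 6). The groups did not overlap, the sum was lower in 6 of 6 pairs, and the log2 difference of -0.26 had an exact permutation p of 0.00216 without pairing. Sign changes within the pairs gave an exact p of 0.03125, the smallest that 6 pairs allow. The share held by Camk2d was 78.3% ± 1.15 in Ad-GFP and 77.1% ± 1.52 in Ad-h-NR4A2, a difference of -1.22 percentage points that did not pass (exact permutation p = 0.154). Looked at after the single genes, Camk2a held 6.28% ± 0.408 and 5.22% ± 0.658 (exact permutation p = 0.0130) and Camk2g 15.3% ± 1.44 and 17.6% ± 1.49 (exact permutation p = 0.0195). Summed Calm2 and Calm3 mRNA per CaMKII mRNA was 2.06 ± 0.278 in Ad-GFP and 3.15 ± 0.664 in Ad-h-NR4A2, higher in 6 of 6 pairs with overlapping ranges (exact permutation p = 0.0108). For this ratio and for the Camk2a and Camk2g shares, sign changes within the pairs gave an exact p of 0.03125 each. For the Camk2d share they gave 0.25.

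The proximal promoters of the genes Camk2d and Camk1, which fell, and of Camk2g, which did not pass the test, are shown because NR4A receptors bind DNA as monomers at the NBRE, the octamer AAAGGTCA. RefSeq windows of rat build GRCr8 were at hand for 6 of the 9 genes, and the 250 bases before the start were searched on both strands. None of the 6 windows held the NBRE, which 1.11% of all 27457 windows hold, nor its core AGGTCA, which 13.7% hold. Neither the cyclic AMP response element TGACGTCA (1.70% of windows), bound by CREB, a target of CaM kinases, nor TATAAA (13.1%) was present in the 6. The half-site TGACG (19.0% of windows), which lies within the full element, occurred in Camk1 and Camkk1 on 1 occasion each and in Camk2a on 2. GC boxes, GGGCGG (32.4% of windows), occurred 3 times in Camk2d and in Camkk1, 5 times in Camk2b and 7 times in Camk2g, and in neither Camk1 nor Camk2a. CCAAT (34.3% of windows) was found 2 times, in Camkk1. GC content was 75.2% for Camk2d, 80.8% for Camk2g, 57.2% for Camk1 and 60.4% for Camk2a, against a median of 52% over all windows. The sequences read 5′ to 3′ on the gene's own strand, with matches to these motifs on either strand in capitals, which are GC boxes in Camk2d (chr2:217698301-217698550, plus strand) and Camk2g (chr15:3553106-3553355, plus strand) and the half-site in Camk1 (chr4:148047146-148047395, minus strand).
Camk2d: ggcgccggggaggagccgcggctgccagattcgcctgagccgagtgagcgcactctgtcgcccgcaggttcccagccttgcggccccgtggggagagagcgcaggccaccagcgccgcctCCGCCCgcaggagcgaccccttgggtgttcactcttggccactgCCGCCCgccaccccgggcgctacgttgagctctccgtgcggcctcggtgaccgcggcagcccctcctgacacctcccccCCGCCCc
Camk2g: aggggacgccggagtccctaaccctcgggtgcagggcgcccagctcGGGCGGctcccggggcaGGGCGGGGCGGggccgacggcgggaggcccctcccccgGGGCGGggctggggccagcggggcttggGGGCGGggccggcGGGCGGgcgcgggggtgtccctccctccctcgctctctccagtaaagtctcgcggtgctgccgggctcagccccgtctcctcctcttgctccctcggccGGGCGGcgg
Camk1: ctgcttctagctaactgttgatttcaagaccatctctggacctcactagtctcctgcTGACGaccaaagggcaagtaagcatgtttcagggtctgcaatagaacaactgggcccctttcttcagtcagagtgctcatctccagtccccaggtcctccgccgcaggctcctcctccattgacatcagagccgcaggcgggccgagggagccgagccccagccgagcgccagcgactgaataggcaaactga

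Camk1, on Rn5 chromosome 4 (208580193 to 208596751), encodes CaM kinase I, a monomeric cytosolic kinase that needs both calmodulin and phosphorylation by a CaM kinase kinase for full activity. Its FPKM was 38.4, 41.4 and 51.5 in Ad-GFP and 31.3, 33.5 and 38.2 in Ad-h-NR4A2 (lowest, median and highest). The highest Ad-h-NR4A2 sample, number 27, lay just below the lowest Ad-GFP sample, number 24, so the groups did not overlap. The log2 change was -0.33 ± 0.08 (SE, limma adjusted p = 0.00327), a fall in 6 of 6 pairs with a ratio of 0.792, short of the fold limit.

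Its 2 upstream kinases were far scarcer. Camkk2, on chromosome 12 (40918049 to 41191356), had 0.955, 1.63 and 1.93 FPKM in Ad-GFP and 0.912, 1.47 and 1.99 FPKM in Ad-h-NR4A2. The groups covered the same range, and the log2 change was -0.03 ± 0.20 (SE, limma adjusted p = 0.923). Camkk1, on chromosome 10 (59324561 to 59347636), had 0.213, 0.272 and 0.340 FPKM in Ad-GFP and 0.279, 0.298 and 0.465 FPKM in Ad-h-NR4A2. It was higher with NR4A2 in 5 of 6 pairs, but the ranges overlapped and the log2 change of 0.20 ± 0.14 (SE) did not pass (limma adjusted p = 0.269). Only 13 to 39 fragments per sample stood behind Camkk1 and 37 to 94 behind Camkk2, so small differences were not detectable at this depth.

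**Figure D4:**
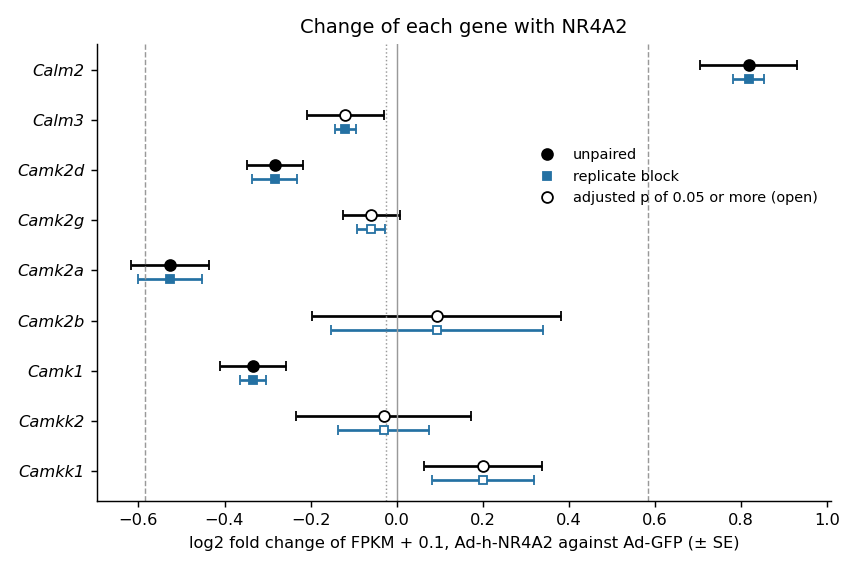
Log2 fold change (horizontal axis, Ad-h-NR4A2 against Ad-GFP, FPKM + 0.1) of each gene with its SE, without pairing (black circles) and with the replicate number as a block (blue squares). Filled symbols have an adjusted p below 0.05, dashed lines mark the 1.5-fold limit and the dotted line the median of all genes. Calm2 at 0.82 is the 1 gene beyond the limit, and Calm3 at -0.12 is filled only with the block.

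Some genes tracked Calm2 or Camk2d across samples after the group means were taken out. Over the 12 samples and 8977 genes with a mean of at least 1 FPKM, the deviations of Calm2 were most like those of Timp2 (Pearson r = 0.974), Smtnl2 (0.958) and Htra2 (0.955). Those of Camk2d were most like Psen2 (0.936), Tmem222 (0.929) and Atxn1 (0.919). Samples with the same number share an experiment, which enters each of these values. In the contrast itself, Timp2 had a log2 change of -0.42 whereas Calm2 had 0.82, so likeness within groups did not mean the same direction between them.

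The wider pathway was read from 6 gene lists, which held 60 tested genes. Of these, 10 were called up and 9 down, a share of 31.7% beside 15.2% of all genes, with a median log2 change of -0.08. For the alternatives given below, 1662 of all 10950 genes were called in the main fit and 1825 with the replicate block. With single samples left out 1542 to 1769 were called, and 1670 with transcripts of a gene summed. With no filter on low values it was 1907 of 14040 genes, and at a mean of at least 1 FPKM 1245 of 8978.

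Other kinases that bind calmodulin or belong to the CaM kinase group were called up in 5 of 12 tested and called down in 0, which is 41.7% beside 15.2% of all genes. Dclk1, a doublecortin-like kinase, had a mean of 0.202 FPKM ± 0.0634 in Ad-GFP and 6.35 FPKM ± 2.53 in Ad-h-NR4A2 (SD, n = 6), a log2 change of 4.35 ± 0.24 (SE, limma adjusted p = 1.62e-08). Its relative Dclk2 went from 0.176 to 0.310 FPKM (log2 change 0.56, limma adjusted p = 0.0102), with overlapping ranges. The death-associated protein kinases rose together, Dapk2 from 1.84 to 4.49 FPKM (log2 change 1.22, adjusted p = 1.51e-05 in limma) and Dapk3 from 34.0 to 55.0 FPKM (log2 change 0.69, adjusted p = 5.26e-06 in limma). Phkg1, a catalytic subunit of phosphorylase kinase, which has calmodulin built in, went from 2.77 to 5.85 FPKM (log2 change 1.06, limma adjusted p = 6.63e-04). Eef2k, which phosphorylates elongation factor 2 and slows translation, fell by less than the fold limit, from 18.4 to 13.1 FPKM (log2 change -0.49, limma adjusted p = 1.24e-04).

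Calmodulin-like genes, calmodulin-binding proteins, CaMKII inhibitors and CaM kinase phosphatases together gave 2 called up and 1 called down of 8 tested. That is 37.5%, beside 15.2% of all genes, and 2 were called in all with transcripts of a gene summed. Pcp4l1, a relative of the calmodulin-binding protein PCP4, had a mean of 71.6 FPKM ± 13.3 in Ad-GFP and 18.0 FPKM ± 3.34 in Ad-h-NR4A2, a log2 change of -1.98 ± 0.13 (SE, limma adjusted p = 1.09e-07) with no overlap. Camta1, a calmodulin-binding transcription activator, went from 10.7 to 21.0 FPKM on its main transcript (log2 change 0.96, limma adjusted p = 6.90e-05), and its change was 0.39 on the log2 scale when its 2 transcripts were summed, below the fold limit, so that it was then no longer called. Ppm1e, a phosphatase that removes the activating phosphate from CaM kinases, went from 9.92 to 14.95 FPKM (log2 change 0.59, limma adjusted p = 2.65e-05). Its ratio of 1.51 was only just past the fold limit. With each sample scaled to the same total (TPM), its log2 change was 0.57, below the limit, and 2 genes of the list were called. The list also had 2 called without Ad-GFP sample 28 or without Ad-h-NR4A2 sample 24. The CaMKII inhibitor Camk2n1 fell from 4.56 FPKM ± 0.785 to 3.11 FPKM ± 0.478 (log2 change -0.53, limma adjusted p = 0.00380), short of the fold limit. Per CaMKII mRNA, Camk2n1 was 0.0318 ± 0.00562 and 0.0260 ± 0.00431, a difference that did not pass the unpaired exact permutation test (p = 0.0671). It was lower in 6 of 6 pairs, and sign changes within pairs gave an exact p of 0.03125.

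None of 12 tested calmodulin-activated enzymes and pumps was called, where 15.2% of all genes were, and 3 (25%) had an adjusted p below 0.05 (2 up and 1 down), where 40.9% of all genes did. With the replicate block, or without Ad-GFP sample 24, 1 was called. The most abundant were the calcineurin genes Ppp3r1, which rose 1.26-fold from 89.4 to 112.8 FPKM (log2 change 0.33, limma adjusted p = 0.00548), and Ppp3cb, with 49.4 and 48.6 FPKM (log2 change -0.03, limma adjusted p = 0.717).

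Genes for CaMKII substrates in excitation-contraction coupling and the sarcomere were called down in 5 of 8 tested and up in 1. That is 75% called, beside 15.2% of all genes, and the median log2 change was -0.63. With single samples left out 4 to 6 were called in either direction, and 5 were with transcripts of a gene summed or with no filter on low values. Pln, which encodes the SERCA inhibitor phospholamban, went from 1428 FPKM ± 228 to 873 FPKM ± 200 (log2 change -0.72, limma adjusted p = 0.00101). Ryr2, the calcium release channel, fell from 85.7 to 53.4 FPKM (log2 change -0.68, limma adjusted p = 8.46e-05) and Cacna1c, the L-type calcium channel pore, from 18.1 to 11.3 FPKM (log2 change -0.68, limma adjusted p = 2.26e-05). Mybpc3, the cardiac myosin-binding protein, fell from 1002 FPKM ± 55.8 to 667 FPKM ± 51.8 (log2 change -0.59, limma adjusted p = 2.45e-06). The potassium channel genes parted, with Kcnd3 from 1.35 to 0.852 FPKM (log2 change -0.67, limma adjusted p = 0.0384, lower in 4 of 6 pairs) and Kcnd2 from 6.33 to 12.0 FPKM (log2 change 0.92, limma adjusted p = 5.40e-05). With its 3 transcripts summed, Kcnd3 had a log2 change of -0.55, short of the fold limit.

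Class IIa histone deacetylases, the 14-3-3 proteins that hold them in the cytosol and the MEF2 factors they repress make up a route from CaM kinases to transcription. Of 12 tested, 1 was called up and 1 down (16.7%, close to the 15.2% of all genes), and by adjusted p alone 2 rose and 5 fell (58.3%, beside 40.9%). Hdac5 went from 37.7 to 24.6 FPKM (log2 change -0.62, limma adjusted p = 2.80e-05), whereas Mef2a and Mef2d fell by less, with log2 changes of -0.36 and -0.40 (limma adjusted p = 1.83e-04 and 0.00339). Mef2b rose from 0.140 to 0.278 FPKM (log2 change 0.64, limma adjusted p = 0.0205), a level so low that it left the count at a mean of at least 1 FPKM, where 1 gene was called. Without Ad-h-NR4A2 sample 25, 1 gene was called too.

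Kinases phosphorylated by the CaM kinase kinases, listed together with the AMPK subunits, gave 1 called up and 2 called down of 10 (30%, beside 15.2% of all genes). By adjusted p alone 1 rose and 5 fell (60%, beside 40.9% of all genes). The catalytic subunit gene Prkaa2 fell from 118.5 FPKM ± 5.55 to 78.3 FPKM ± 7.96 (log2 change -0.60, limma adjusted p = 4.76e-06) and the γ subunit gene Prkag3 from 1.87 to 0.6252 FPKM (log2 change -1.48, limma adjusted p = 1.37e-05). The β subunit gene Prkab2 rose from 12.9 to 20.6 FPKM (log2 change 0.66, limma adjusted p = 4.82e-05). With the replicate block 5 were called, where 1825 of 10950 genes were. With single samples left out 2 to 5 were called, where 1542 to 1769 of all genes were. The count was 2 without Ad-h-NR4A2 sample 25, 27 or 29 and 5 without Ad-h-NR4A2 sample 28. Camk2n1, Eef2k, Mef2a and Mef2d were named after their values were seen, and the other pathway genes by the rule given with the processing.

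**Figure D5:**
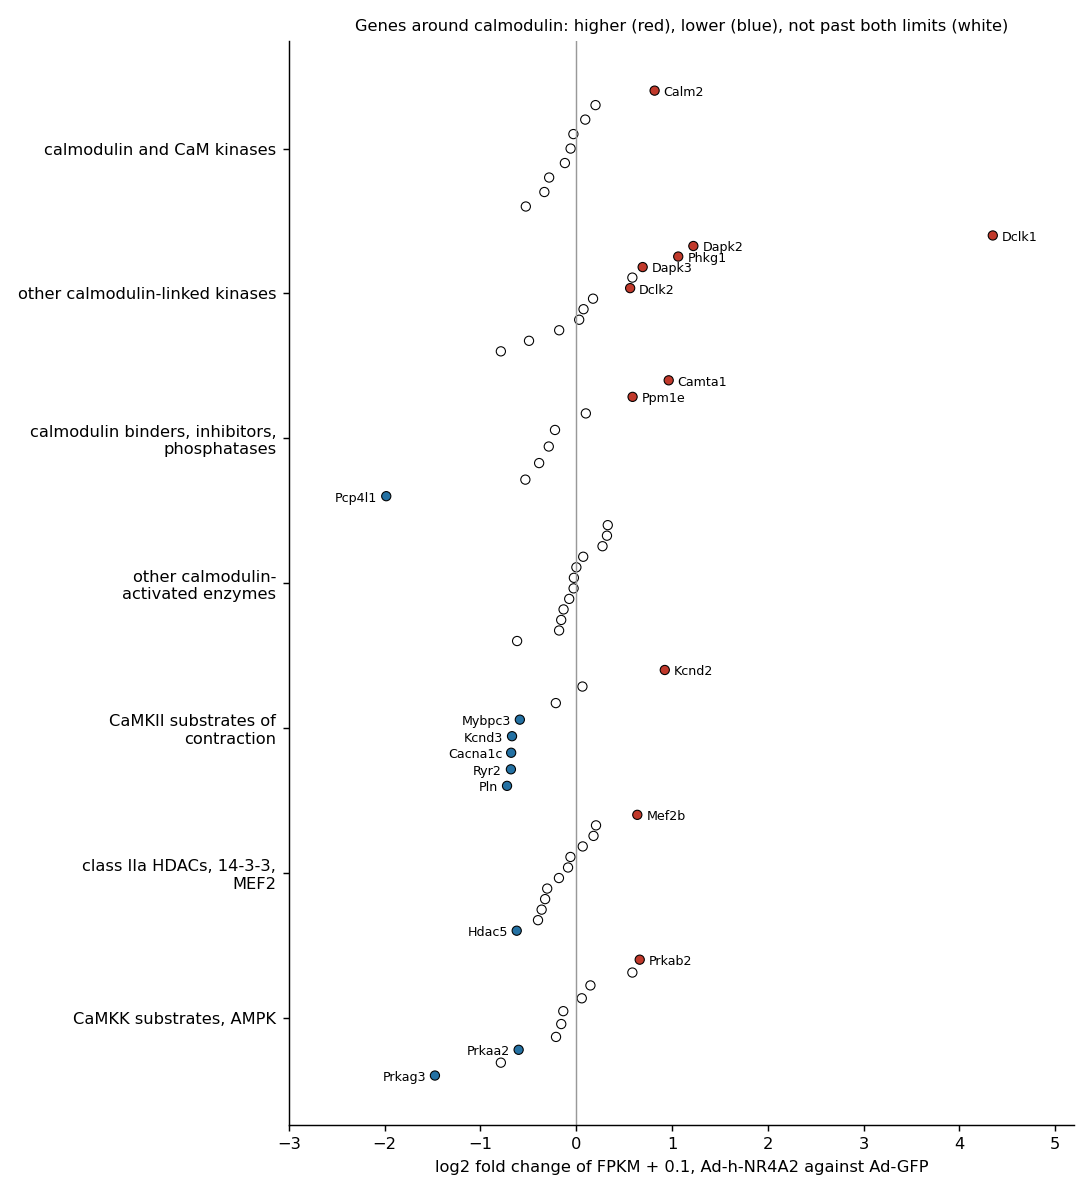
Log2 fold change (horizontal axis, Ad-h-NR4A2 against Ad-GFP, FPKM + 0.1) of every tested gene in the calmodulin and CaM kinase set (top) and in 6 lists of related genes, 1 point per gene. Points with an adjusted p below 0.05 and at least a 1.5-fold ratio of means are named and filled red (higher) or blue (lower). Dclk1 at 4.35 and Pcp4l1 at -1.98 are the furthest from 0, and 5 of the 8 CaMKII substrates are blue.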

How the data were processed

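RNA of 12 ARVM samples (6 Ad-GFP, 6 Ad-h-NR4A2, grouped by their labels) was sequenced by the authors in 1 run from stranded mRNA libraries with paired-end reads. Per the paper, reads were aligned to Rn5 with STAR and quantified with Cufflinks. The values deposited by the authors are FPKM per RefSeq transcript; a failed status marked 8 of 225024 values, none of them in the genes described. FPKM are not counts, so limma (version 3.58.1, R 4.3.3) was fitted to log2(FPKM + 0.1) with an intensity trend and no pairing, on 10950 genes above 0 FPKM in all 12 samples, taking for each gene name the transcript whose mean FPKM was highest. Such fold changes understate those of low genes. A gene was called at an adjusted p below 0.05 and a ratio of means of at least 1.5. Sums and shares were tested by two-sided exact permutation over all 924 splits, or by sign changes within pairs (64). Fitting was tested on simulated data. Python 3.11.15 and SciPy 1.17.1 were used for the tables.

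Whole fragments were sought in low values of transcripts of at least 800 nt. With one depth and one effective-length offset per sample, 99.4% to 99.9% of values up to 6 fragments came out whole within 0.05, which gave the depths; intervals and floors from them cover counting error only.

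Both groups carry the sample numbers 24 to 29. Deviations of same-numbered samples from their group means correlated at 0.347 to 0.623 in 6 pairs (mean 0.505), against a mean of -0.10 for other numbers. The numbers were therefore taken to pair the samples, and the fit with the replicate block was an alternative.

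The genes and the pathway and marker lists were chosen with earlier results of these data known. In each list the text names the called genes, at most the 6 with the largest change, or, with none called, the 2 most abundant, and for Calm2 and Camk2d the 3 genes most like each. Alternatives were other pseudocounts, filters, scalings, fold limits, summed transcripts, no trend, the block and each sample left out. Some genes of the lists are not reported here, and the lists' counts and sums leave them out. Promoters came from RefSeq (GRCr8).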

Additional observations from a re-analysis of the deposited data

Results flagged for a closer look

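Within groups of 6, 7 of 118 sets of values (5.93%) held a sample whose gap to its nearest neighbour was large against the whole range of the group, and chance gives about 1 in 20. Ad-h-NR4A2 sample 26 stood high in the Camk2a share of CaMKII mRNA, at 6.56% where the group's median was 4.96%, and in Camk2a per Camk2d, at 0.0859 where the median was 0.0643. Without this sample Camk2a passed the fold limit. Ad-h-NR4A2 sample 24 was low in Dapk2 (2.78 FPKM, median 4.74) and high in Ppm1e (17.4 FPKM, median 14.5) and in Pln (1249 FPKM, median 838), and its Camk2d value was the one that overlapped the Ad-GFP range. Without this sample, 2 genes of the list that holds Ppm1e were called, where 3 were with it. Ad-GFP sample 24 was high in Dapk3 (40.4 FPKM, median 33.2). Ad-GFP sample 28 was high in Camk2n2, a second CaMKII inhibitor gene (2.98 FPKM, median 1.47), which had a log2 change of -0.29 (limma adjusted p = 0.368).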

How the results depend on the processing

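Calm2 (log2 change 0.77 to 0.89), Camk2a (-0.58 to -0.47), Camk2d (-0.33 to -0.24) and Camk1 (-0.37 to -0.28) kept their direction and an adjusted p below 0.05 under all alternatives run, and Camk2g kept its direction without passing in any. The replicate block turned Calm3 (-0.12) into a fall at an adjusted p of 0.00229 in limma, short of the fold limit. It moved no other gene of the set across an adjusted p of 0.05 and changed no call. With the block, 5 of the 9 genes had an adjusted p below 0.05, where 6509 of 10950 genes did. Of the 9 genes, 4 passed with no fold limit, where 4484 of 10950 genes did. At a limit of 2-fold 0 passed, where 803 of 10950 genes did. Leaving out single samples gave 1 to 2 called, with Camk2a added without Ad-h-NR4A2 sample 26. Of all genes, 1542 to 1769 were then called. The sum of Calm2 and Calm3 lost its call with 1 transcript per gene (0.223, exact permutation p = 0.0628) but not when that was paired (exact p = 0.03125). Camk2b reversed at a pseudocount of 0.01 (-0.0381) and with transcripts summed (-0.12), and with single samples left out it ran from -0.0533 to 0.208. Camkk2 ran from -0.141 to 0.0860 with single samples left out. Few fragments behind Camk2b, Camkk1 and Camkk2 limit what could be seen there, and 1 Camk2d transcript in the table leaves splice forms unread.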

Other observations

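Some kinase genes of the pathway passed the test with the replicate block and not without pairing. Over all 10950 genes tested, 6509 had an adjusted p below 0.05 with the block and 4484 without pairing. Camk4 and Camk1d also passed without Ad-GFP sample 27 and without Ad-h-NR4A2 sample 28. Camk4, the nuclear CaM kinase, averaged 0.0906 FPKM in Ad-GFP and 0.181 FPKM in Ad-h-NR4A2 (limma adjusted p = 0.0681, and 0.0440 with the replicate block). Camk1d, a second CaM kinase I gene, averaged 0.241 and 0.0928 FPKM and was lower in 6 of 6 pairs (limma adjusted p = 0.0705, and 0.00249 with the replicate block). Mylk3, the cardiac myosin light chain kinase, averaged 228.0 and 199.2 FPKM (limma adjusted p = 0.149, and 0.0233 with the replicate block). Atp2a2, the SERCA pump that phospholamban restrains, averaged 1367 FPKM ± 175 and 1421 FPKM ± 86.1 (limma adjusted p = 0.555). These genes were named after their values were seen.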
